A study of Caenorhabditis elegans with 4 samples.

Results

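The 593 ZIM-1 peaks described here lie on chromosome X of Caenorhabditis elegans beyond its left end. They were chosen by position alone, as the peaks of the series-wide list whose midpoint lies above 3 Mb of X on the build WormBase WS220. The whole series-wide list holds 9439 peaks, so they make up 6.28% of its nuclear peaks, on a stretch of 14.7 Mb that ends at the last base of the last peak. Binding was measured by ChIP-seq, in which protein-bound DNA is recovered with an antibody, sequenced and searched for places with more reads than the background. The ChIP group holds 2 libraries and the input group, sheared genomic DNA without antibody, holds 2. Both groups came from hermaphrodites of the strain fem-2(b245), genotype fem-2(b245)III, labelled as young adults with a germline and grown at 20 °C, although the growth protocol describes gravid adults. The b245 allele, which every library carries, is known as temperature-sensitive, and no wild-type worms are among the samples. The antibody, SDQ3965, is an affinity-purified rabbit polyclonal. Chromatin came from whole worms, so germline and somatic nuclei cannot be told apart.

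ZIM-1 belongs to a family of C. elegans zinc finger proteins, with ZIM-2, ZIM-3 and HIM-8, that bind the pairing centers at which homologous chromosomes find each other in meiosis. ZIM-1 is known for the centers of chromosomes II and III, whereas HIM-8 is known for that of X, which lies toward the left end. The stretch of X beyond the left end therefore lies outside the pairing center of X. In hermaphrodites X is also the chromosome that the dosage compensation machinery binds in somatic cells, and it is largely silent through much of meiosis in the germline. FEM-2 is a phosphatase of the sex determination pathway that promotes male fate.

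Each list gives 1 score per peak, the authors' value from their peak caller. No header says what the score is, so it was used to rank and group peaks within a list, and replicate scores were set side by side only at shared sites. In the series-wide list 174.44 is the highest score and is tied among several peaks, and in the replicate lists the tie lies at 3100. ChIP replicate 1 had 342 peaks beyond 3 Mb of X, of 5552 in all, and ChIP replicate 2 had 153 of 2887. Replicate 2 is thus the shorter list here as elsewhere. Read depth is unknown for all libraries. Intervals below are at 95% and cover counting error only, except those from a model over 1 Mb bins, which take in the spread between bins. The input libraries were not analysed here. Their part in any result was not tested.

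Peaks were sparse and spread over the whole stretch. There were 40.3 peaks per Mb in the series-wide list (counting interval 37.1 to 43.7), 23.2 in replicate 1 (20.8 to 25.8) and 10.4 in replicate 2 (8.81 to 12.2). They covered 1.85% of the sequence in the series-wide list, 1.63% in replicate 1 and 1.19% in replicate 2. The sparsest full 1 Mb bin of the series-wide list and of replicate 1, from 10 to 11 Mb, held 23 and 11 peaks, and 6 of replicate 2, whose own sparsest bin was from 7 to 8 Mb with 3. The densest full bin of the series-wide list, from 4 to 5 Mb, held 56, against 31 in replicate 1 and 13 in replicate 2. The densest full bin was another in each replicate, from 16 to 17 Mb in replicate 1 with 40 peaks, and from 14 to 15 Mb in replicate 2 with 19. Over the 14 full bins the counts of the replicates rose and fell together, with rho 0.77 (Spearman) and r 0.71 (Pearson), given as a description of bins that come from the same libraries.

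**Figure D1:**
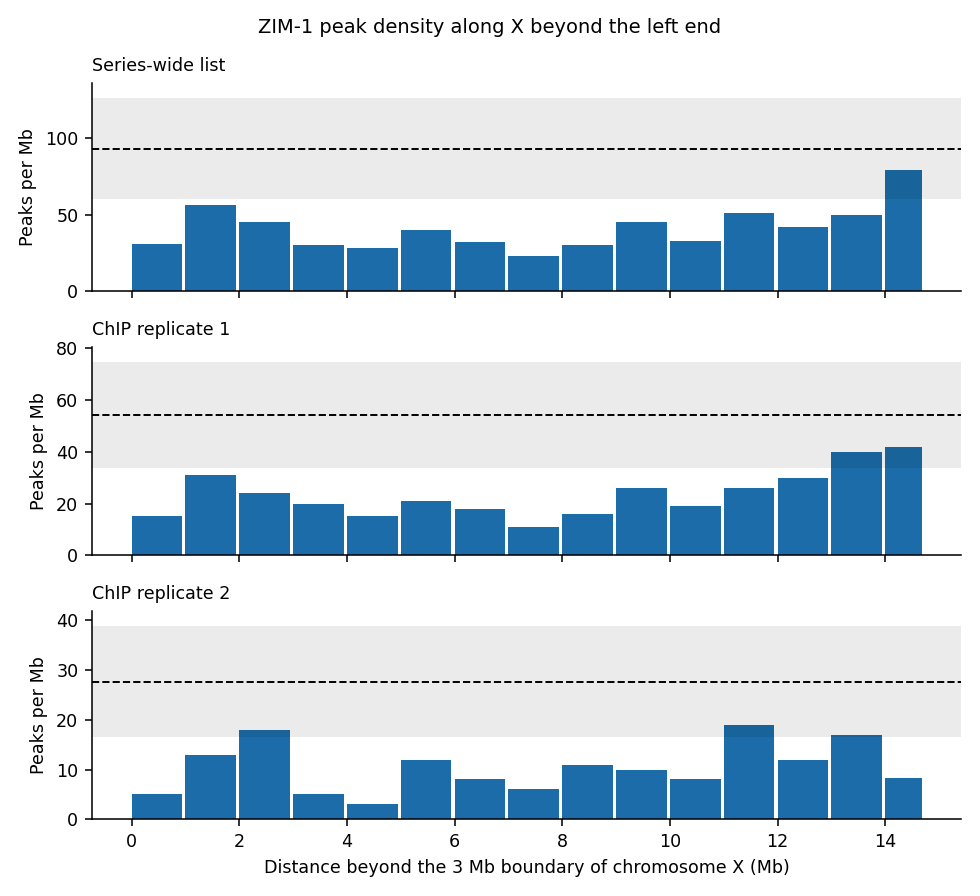
Peaks per Mb in 1 Mb bins (bars; the last bin is shorter) against the distance beyond the 3 Mb boundary of X, in Mb, for each list. The dashed line is the mean of the 65 full autosomal bins beyond 3 Mb and the grey band is 1 SD around it. Every full bin of X beyond 3 Mb lies below the dashed line in all 3 lists.

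The right-hand part of the stretch was the densest. From 13 Mb to the last peak there were 49.4 peaks per Mb (43.2 to 56.1), from 3 to 8 Mb 38.0 (32.8 to 43.8), and from 8 to 13 Mb 34.0 (29.1 to 39.5). Both replicates were also densest on the right, replicate 1 with 30.7 per Mb against 21.0 and 18.4, and replicate 2 with 13.1 against 8.80 and 9.40. The median series-wide scores of the 3 stretches were 6.58 on the right, 6.58 on the left and 6.67 in the middle. Those of single full 1 Mb bins ran from 5.75, at 6 to 7 Mb, to 9.08, at 11 to 12 Mb. More of the highest scores lay to the right. Of the 22 peaks scoring over 100, 14 lay beyond 13 Mb, 4 between 3 and 8 Mb and 4 between 8 and 13 Mb. These parts held 233, 190 and 170 of all peaks of the stretch, in that order, and no test was made.

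From 17 Mb on, X was denser than from 3 to 17 Mb in the series-wide list and replicate 1 but not replicate 2. From 3 to 17 Mb there were 38.3 series-wide peaks per Mb (35.1 to 41.7). The last segment held 57 in 0.719 Mb, or 79.3 per Mb (60.1 to 102.7). Replicate 1 was denser there too, with 41.7 per Mb against 22.3. Replicate 2 was not, with 6 peaks or 8.35 per Mb against 10.5. Of the 57 peaks 6 were found in both replicates, 10.5% (3.96 to 21.5), against 21.3% (17.9 to 24.98) of the 536 peaks before it. The same length at the right end held 98.8 series-wide peaks per Mb on I, 130.8 on II and 128.0 on III. It held 91.8 on IV and 82.1 on V. The value of X was the lowest, but its interval of 60.1 to 102.7 holds those of I, IV and V. The last segment of X was singled out after its values were seen, and no test was made.

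Set against the autosomes cut in the same way, the peaks of X were about as sparse in every list. The 14 full 1 Mb bins of X held 38.3 ± 10.1 series-wide peaks (mean ± SD over bins) and the 65 autosomal bins beyond 3 Mb held 92.8 ± 32.8. The ratio was 0.41 (interval 0.31 to 0.55 from a quasi-Poisson model that takes its spread from the bins). All 14 bins of X lay below the lower quartile of the autosomal bins, 69 peaks, and 11 of them lay below the lowest autosomal bin, 46 peaks. Replicate 1 alone gave a ratio of 0.41 (0.30 to 0.56) and replicate 2 alone 0.38 (0.27 to 0.54). Bins of 1 chromosome are not independent and X is a single chromosome, so this interval is too narrow. Among the autosomes the density beyond 3 Mb ran from 82.4 peaks per Mb on II to 112.6 on III, 82.9 on V, 89.8 on IV and 106.5 on I, against 40.3 on X. Restricted to peaks at the tied score of 174.44, a choice made after seeing the data, the same model gave 0.59 with an interval of 0.20 to 1.76, which is too wide to tell a deficit from none.

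Within X the left end was denser. The first 3 Mb held 258 peaks, or 86.0 per Mb (75.8 to 97.2), so the rest of the chromosome had 0.47 times that density (0.40 to 0.54). The same ratio was 0.46 in replicate 1 (0.38 to 0.57) and 0.42 in replicate 2 (0.32 to 0.56). The stretch beyond 3 Mb carried 69.7% of the X peaks (66.5 to 72.8) on 83.1% of the length. The step was not sharp at the boundary. The bins up to it held 141, 70 and 47 peaks, and the next 2 bins 31 and 56. The last peak before the boundary, X from 2996934 to 2997295, scored 13.5, and the first beyond it, from 3007229 to 3007867, scored 19.45. Both overlapped a replicate 2 peak and no replicate 1 peak.

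Peaks beyond the left end had somewhat lower scores than autosomal peaks, and a smaller part of them scored high. Their median series-wide score was 6.66 (interquartile range 4.41 to 13.1), against 7.74 (4.70 to 16.3) for autosomal peaks beyond 3 Mb and 7.74 (4.70 to 17.3) for the first 3 Mb of X. All nuclear peaks were cut into 5 classes of score, each with 20% of the peaks. Of the X peaks 14.7% fell into the highest class and 48.4% into the lowest 2 classes, against 18.5% and 41.7% of the autosomal ones. Their median width was 268 bp (195 to 405), against 295 bp (200 to 507) on the autosomes. These are descriptions with no test.

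Most peaks were carried by at most 1 replicate. Of the 593 peaks, 120 overlapped a peak of both replicates by at least 1 bp, 20.2% (17.1 to 23.7), where 25.9% of all nuclear peaks did and 25.3% of autosomal peaks beyond 3 Mb (24.2 to 26.4). A further 204 overlapped replicate 1 alone (34.4%), 47 replicate 2 alone (7.93%) and 222 neither (37.4%, where 35.6% of all nuclear peaks overlapped neither). Peaks in both replicates had a median series-wide score of 39.0 and a median width of 486 bp. Peaks of replicate 1 alone had 6.90 and 282 bp, and peaks of replicate 2 alone 5.78 and 332 bp. The unreplicated rest had 4.70 and 195 bp. Several series-wide peaks could meet the same replicate peak, and the reverse. The 47 peaks in replicate 2 alone met 31 separate replicate 2 peaks, and the 204 in replicate 1 alone met 190 of replicate 1. The 120 found in both met 132 of replicate 1 and 118 of replicate 2.

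**Figure D2:**
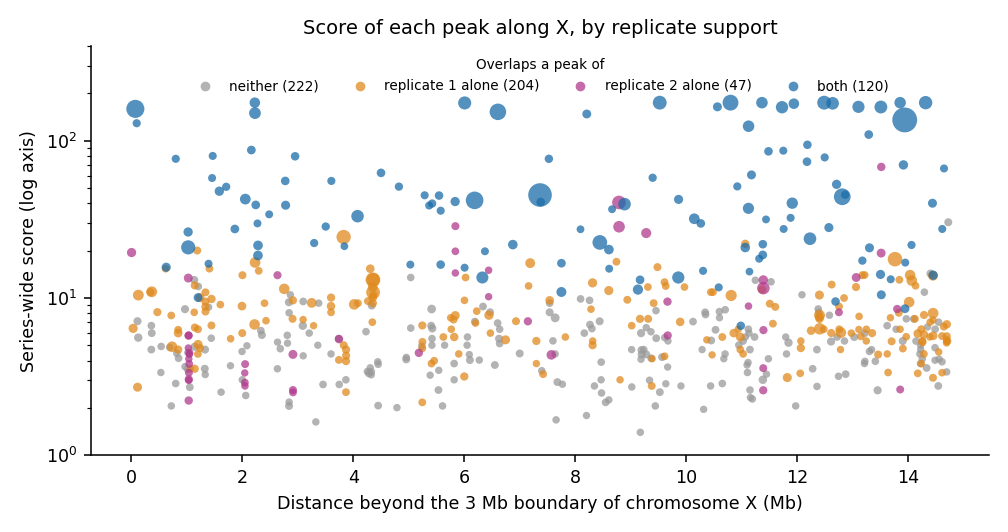
Series-wide score (log axis) of each of the 593 peaks against its distance beyond the 3 Mb boundary of X, in Mb; point area grows with peak width and colour gives replicate support. All 22 peaks over a score of 100 are found in both replicates, as is every nuclear peak over 100. Some peaks of replicate 2 alone sit in vertical stacks, and others lie singly along the stretch.

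At matched score the share of peaks found in both replicates had overlapping intervals on X and elsewhere. In the highest class 80 of 87 X peaks were found in both replicates, 92.0% (84.1 to 96.7), against 94.1% (92.6 to 95.4) on the autosomes beyond 3 Mb and 91.7% (80.02 to 97.7) in the first 3 Mb of X. In the next class down, where X peaks scored 10.19 to 22.55, the shares were 35.6% (26.4 to 45.8), 32.0% (29.4 to 34.6) and 26.3% (15.5 to 39.7). In the middle class they were 3.39%, 4.98% and 6.25%. In the lowest 2 classes 0 of 134 and 0 of 153 X peaks were found in both, with upper bounds of 2.72% and 2.38%, where the autosomes had 1.07% and 1.22%. No test was made of the differences. Overlap with replicate 2 by itself differed more in the lowest class, where it met 16 of the 134 X peaks (11.9%) and 52 of the 1309 autosomal ones (3.97%). Of the 16 X peaks beyond 3 Mb, 6 lay in 1 cluster near 4 Mb. Several of the 16, there and elsewhere, met the same broad replicate 2 peak, so they are not 16 separate replicate 2 sites.

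**Figure D3:**
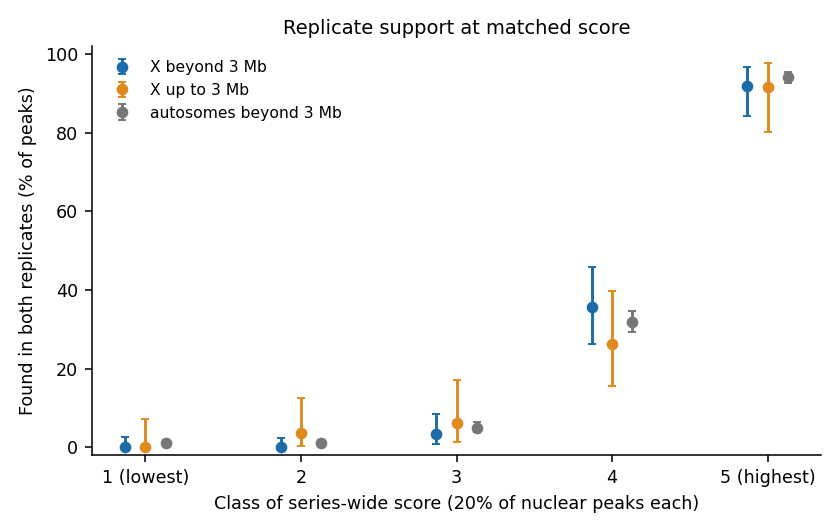
Percent of the peaks of each set that overlapped a peak in both ChIP lists, by class of series-wide score from lowest to highest, with exact Clopper-Pearson 95% intervals. The share climbs from 0 to 92.0% on X beyond 3 Mb, and the intervals of the 3 sets overlap in every class.

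The strong sites were few, wide and replicated. Of the 593 peaks 7 were tied at the highest score, 1.18%, where 0.827% of all nuclear peaks were. The widest of these lay on X from 13794601 to 13797860. It was met by 1 peak in each replicate, both with the score of 3100. The replicate 1 peak spanned 13794581 to 13797891 and that of replicate 2 spanned 13794689 to 13797737, so all lists placed its edges close together. The other tied sites ran from 15481894 to 15484228, 12520175 to 12522492, 17309723 to 17311837, 14361919 to 14363318, 16850979 to 16852352 and 5227618 to 5228652. Just below them came sites from 9007053 to 9009063 with a score of 173.73, from 15634936 to 15636741 with 172.78 and from 14937011 to 14938062 with 171.83. Each of these 10 sites met a peak at 3100 in each of the replicates. Of the 10, 8 lay beyond 12 Mb, a cut not planned in advance. Of all 593 peaks, 45 lay from 12 to 13 Mb and 233 beyond 13 Mb.

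The site from 12520175 to 12522492 showed a difference in extent. In replicate 1 it was split into 2 peaks that together ran from 12520200 to 12522425, scoring 3100 and 293.18. The only replicate 2 peak there began later, at 12520927, and ended at 12522412. The site at 5227618 had a strong neighbour 772 bp further on, from 5229425 to 5230899, with a score of 149.71 and 3100 in each replicate. All 22 peaks over a score of 100 were found in both replicates. So was every nuclear peak over 100, since none outside both replicates scored above 68.12. Their replicate 1 scores were at least 767.22 and their replicate 2 scores at least 617.99, and 18 of the 22 reached 3100 in both. Their median width was 1672.5 bp, over a range of 336 to 9076 bp.

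The share of X was also taken among the strongest peaks of the list. The stretch beyond 3 Mb held 10 of the 101 peaks in the top 1% of the list (9.90%, 4.85 to 17.5), but 22 of 472 in the top 5% (4.66%, 2.94 to 6.97) and 108 of 2360 in the top 25% (4.58%, 3.77 to 5.50), against 6.28% of all peaks. The interval for the top 1% is wide and holds 6.28%. That for the top 5% holds it too, and that for the top 25% lies below it. These classes are nested and no test was made. In replicate 2, 22 of the 153 X peaks reached 3100 or more, 14.4% (9.24 to 21.0), against 6.96% (5.86 to 8.20) over all autosomes beyond 3 Mb. The first 3 Mb of X had 11 of 74 at 3100 (14.9%), its highest score. Chromosome IV beyond 3 Mb had 11.1% at exactly 3100, which leaves out higher scores there, up to 3177.24. A high share was thus also seen outside the stretch. In replicate 1 the shares were 5.56% (3.38 to 8.54) and 3.57% (2.997 to 4.23), with intervals that overlapped.

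Wide peaks were not all high in score. The widest, on X from 16929933 to 16939008, spanned 9076 bp with a score of 135.48. Replicate 1 divided it into 6 peaks with scores of 53.98 to 3100 and replicate 2 into 2 peaks with scores of 2165.86 and 3100. Replicate 1 covered it from 16929850 to 16938883 and replicate 2 from 16929836 to 16939883, so the left edges lay close together while replicate 2 reached further right. The next widest, from 10361049 to 10369153, spanned 8105 bp and scored 45.15, with a single peak of 576.36 in replicate 1 and of 977.31 in replicate 2. Of the 19 peaks over 2 kb wide, 11 scored under 50 and 13 were found in both replicates. These counts were not set beside those of other chromosomes. Peaks from 9184882 to 9189098 and from 15807450 to 15811167 were 4217 and 3718 bp wide with scores of 41.75 and 44.0, yet each met a replicate 2 peak at 3100.

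Peaks lay farther apart on X beyond the left end than elsewhere. Of its 592 gaps between neighbouring peaks, 131 were under 1 kb (22.1%), against 36.9% of the gaps on the autosomes beyond 3 Mb and 36.6% in the first 3 Mb of X. The median gap was 10.7 kb (interquartile range 1.44 to 32.6), against 2.70 kb on the autosomes. The widest gap on X, 286.8 kb between 7501239 and 7787994, held 0 peaks of either replicate. Of 147 full windows of 100 kb, 10 were empty (6.80%, 3.31 to 12.2), and both replicate lists were empty in those 10 as well. On the autosomes beyond 3 Mb 8 of 672 were empty (1.19%, 0.515 to 2.33). The variance of the window counts was 2.41 times their mean on X beyond 3 Mb, 4.34 times on the autosomes and 12.6 times in the first 3 Mb of X. No test was made of these differences, and a sparser chromosome has longer gaps and more empty windows by its density alone.

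A few dense windows remained. Of the 148 windows, 5 held more peaks than the mean of X predicts (exact Poisson test, Benjamini-Hochberg adjusted over 1005 windows), a share of 3.38%, where 8.76% of all windows did. The expected number was 4.80 peaks per window. The window from 4 to 4.1 Mb held 18 peaks (adjusted p = 0.00011, exact Poisson test), those from 7.3, 14.1 and 17.2 Mb held 13 each (adjusted p = 0.020, exact Poisson test), and that from 17.6 Mb held 12 (adjusted p = 0.048, exact Poisson test). The replicate 1 list on its own gave 5 called windows, 2 of them the same, at 7.3 and 17.6 Mb. The replicate 2 list on its own gave 0, with 8 at an unadjusted p under 0.05. Against a negative binomial background with the spread of the X windows 0 were called and 1 had an unadjusted p under 0.05. That spread was taken over all of X, where the variance was 12.6 times the mean up to 3 Mb and 2.41 times beyond. The 0 calls therefore say little about the stretch alone. Of the peaks in the 5 windows, 2 of 18, 0 of 13, 4 of 13, 0 of 13 and 2 of 12 were found in both replicates, in the order given.

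The cluster at 4 Mb was broad in replicate 2 and narrow in replicate 1. A run of 17 peaks, each within 10 kb of the next, stretched over 39.9 kb from 4016214 to 4056148. Their series-wide scores were 2.23 to 26.28 with a median of 4.39. Replicate 1 had a single peak in this run, with a score of 80.4. Replicate 2 had 6, with scores from 50.01 to 3062.25, covering 24357 bp against 3254 bp in replicate 1. Of the 17 peaks 2 were found in both replicates, and these 2 met the same replicate 1 peak and the same replicate 2 peak.

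The next largest run showed the opposite. It held 11 peaks over 41.8 kb, from 7323586 to 7365336, with series-wide scores from 3.25 to 13.05. Replicate 1 had 7 peaks there, with scores from 61.61 to 3100, covering 10728 bp. Replicate 2 had 0. The replicate 1 peak from 7353608 to 7358852 was 5245 bp wide with the score of 3100. The 2 series-wide peaks that it met, from 7353619 to 7356331 and from 7356384 to 7358723, scored only 13.05 and 10.86. In the whole nuclear genome it was the only replicate 1 peak at or above 3100, of 236, that met no replicate 2 peak.

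A strong site of replicate 2 was missing from replicate 1. From 11785538 to 11787911 replicate 2 had a peak of 2374 bp at 3100, and next to it, from 11788026 to 11789603, a peak with a score of 2867.7. Replicate 1 had 0 peaks at either. The series-wide peaks there scored 40.47 and 28.37. Such sites made up a larger part of the strong replicate peaks on X beyond 3 Mb than on the autosomes beyond 3 Mb. The first 3 Mb of X was not counted in this way. Its highest peak without a partner scored 2789.78 in replicate 1 and 403.77 in replicate 2. Of the replicate 1 peaks over 1000, 4 of 28 on X beyond 3 Mb met no replicate 2 peak (14.3%), against 8 of 386 on the autosomes beyond 3 Mb (2.07%). In the other direction the counts were 4 of 31 (12.9%) and 10 of 287 (3.48%). These sites were picked after their values were seen, and several of them neighbour each other, so no test was made.

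Over the whole stretch the replicate lists overlapped slightly less than on the autosomes, with intervals that overlapped and no test of the difference. Of the 153 replicate 2 peaks, 118 met a replicate 1 peak, 77.1% (69.6 to 83.5), against 84.4% (82.7 to 86.0) on the autosomes beyond 3 Mb. Of the 342 replicate 1 peaks, 128 met a replicate 2 peak, 37.4% (32.3 to 42.8), against 43.6% (42.0 to 45.3). The median replicate 1 score was 311.9 where a partner existed and 94.1 where none did, and in replicate 2 the medians were 265.8 and 105.2. Across the 129 overlapping pairs the rank correlation of the scores was 0.77 (Spearman). The linear correlation of their log10 values was also 0.77 (Pearson). Peaks that met several partners enter these pairs more than once. Leaving out pairs with a tied score gave a Spearman value of 0.65 over 104 pairs. These values are across peaks of the same 2 libraries and carry no test. From replicate 1 93.9% of the peaks reappeared in the series-wide list, and from replicate 2 96.7%. The 21 and 5 that it left out scored at most 92.71 and 105.21, and none of them was shared between the replicates.

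**Figure D4:**
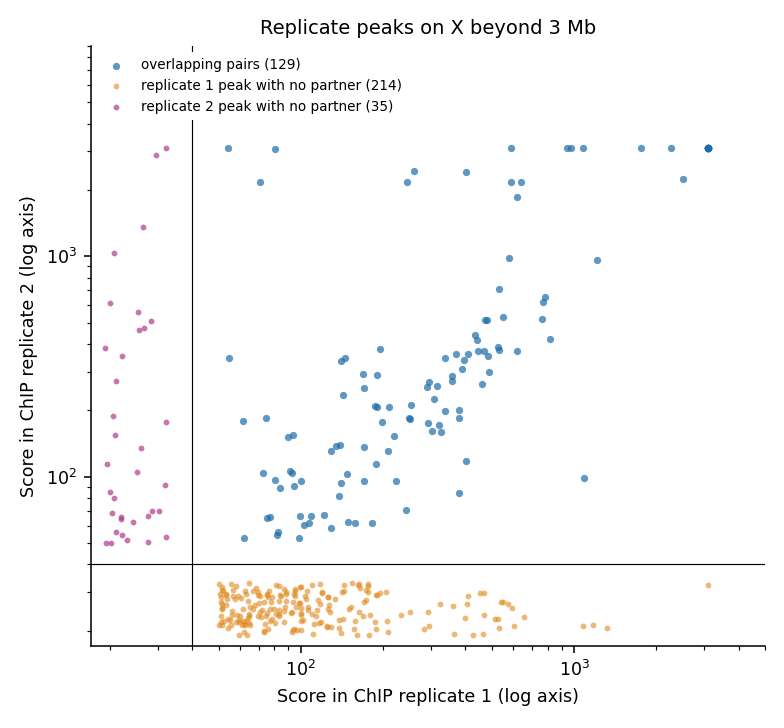
Score in replicate 2 against score in replicate 1 (log axes) for the 129 overlapping pairs of peaks on X beyond 3 Mb; points left of or below the thin lines are peaks with no partner, spread at random across the strip. The strips hold 214 replicate 1 and 35 replicate 2 peaks, mostly of low score, with 1 at the tied score of 3100 in each.

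The last peak of X, from 17718584 to 17718889, was the highest-scoring peak of the stretch found in neither replicate. It scored 30.31, above the next such peaks, from 17399563 to 17399911 with 14.29 and from 8036248 to 8036449 with 13.5. The other peaks found in neither were low, with an interquartile range of 3.42 to 6.32.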

How the data were processed

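Per the submitters' processing notes, reads were aligned with BWA to ce10. Per the file headers and source columns, the authors called peaks with MACS for each ChIP replicate and with MACS v2 for the series-wide list, on WS220; whether reads were pooled, the control and the settings are not given in the sources used here. Each deposited list carries 1 score per peak, set by the authors' caller. Nothing in the labels says that the replicates were separate cultures, so their spread may be technical.

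Peaks were assigned by midpoint and called found in a replicate at an overlap of at least 1 bp. Shares carry exact Clopper-Pearson intervals, densities exact Poisson intervals, and density ratios within X exact conditional binomial intervals. Counts per full 1 Mb bin were compared by a quasi-Poisson model. Windows of 100 kb of all 6 nuclear chromosomes were tested together for an excess over the chromosome mean (exact Poisson, Benjamini-Hochberg, threshold 0.05). Chromosome lengths were the last base of the last peak. Both procedures were tested on simulated data. The work used statsmodels 0.14.6, scipy 1.17.1, pandas 2.3.3, numpy 2.4.6 and matplotlib 3.10.9 under Python 3.11.15.

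The peaks and comparisons were chosen with earlier results of these data known. Sites named by rule were the 10 highest-scoring peaks found in both replicates (ties by width), the highest in neither, the widest, those at either side of the boundary, the last one and the called windows; runs of neighbouring peaks, other wide peaks and strong peaks without a partner were chosen after their values were seen. Alternatives changed the overlap, the score range, the boundary, the window size, the background and the list. The sequence and gene content of peaks were not analysed, since no genome of this build was used here.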

Additional observations from a re-analysis of the deposited data

How the results depend on the processing

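No paired analysis was possible because no input values entered, which leaves each ChIP list without a same-numbered partner. The density ratio to the autosomes kept its direction and its side of the threshold in 15 of 16 alternatives, of which 9 were added after seeing the data; the exception was the set tied at the highest score, with a ratio of 0.59 (interval 0.20 to 1.76), where few peaks enter. With replicate 1 or replicate 2 left out this ratio was 0.38 to 0.41. The ratio to the first 3 Mb of X was 0.42 to 0.46 with 1 replicate left out, 0.38 among peaks found in both replicates, 0.39 with the boundary at 2 Mb and 0.57 with it at 4 Mb, since density falls along the first bins. The share found in both replicates was 18.0% to 20.6% over other overlaps and boundaries and 48.0% for peaks scoring above the median of the list. Peaks found in both replicates had a median score of 39.0. The number of dense windows was 5 from replicate 1, 0 from replicate 2 and 0 with a negative binomial spread. It was 4 to 6 in the other alternatives. The negative binomial spread takes in the clusters themselves and the uneven first 3 Mb of X. Since read depth is unknown, a peak missing from a list does not show that binding was absent.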
